A study of Oryza sativa with 8 samples.

Results

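The genes described here are the 5 rice loci listed as phosphoenolpyruvate carboxylases (PEPC): Os01g0208700, which is known as PPC4, Os02g0244700, Os08g0366000, Os09g0315700 and Os01g0758300. They were chosen by locus identifier alone, as every non-control spot whose probe name begins with one of these identifiers. They are 5 of the 29689 loci on the array and have 16 probes, each printed as a single spot. No table used here pairs the loci with enzyme names, so their naming as PEPC genes rests on the list itself. RNA came from whole roots of seedlings of the rice cultivar Koshihikari. One group was supplied with 0.005 mM NH4Cl and the other with 1 mM NH4Cl, in both cases for 10 days. Each group held 4 biological replicates, 1 array each, per the series' design text, and no other genotype or treatment is named.

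PEPC joins bicarbonate to phosphoenolpyruvate and releases oxaloacetate and phosphate. In roots the oxaloacetate can be reduced to malate or can refill the citric acid cycle, from which 2-oxoglutarate is drawn as the carbon skeleton that accepts ammonium through glutamine synthetase and glutamate synthase. Most plant PEPC works in the cytosol, while rice PPC4 is known as a plastid-targeted form.

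Levels are log2 signals relative to the 75th percentile of the non-control spots on the same array. A change is the mean at 1 mM minus the mean at 0.005 mM, with its SE from limma and a p-value adjusted over all 24981 loci and unnamed probes tested (Benjamini-Hochberg, called under 0.05). Each group had its 4 arrays on a separate slide, so an effect of the slide and one of ammonium cannot be told apart in what follows. The share of spots well above background was 81.4% to 85.1% per array, and 0 spots were saturated. Over all genes tested the median change was -0.09. Without scaling between arrays that median was -0.36, and with spike-in scaling it was -0.47. The root markers Lsi1 and Lsi2, both silicon transporters, were well above background on all 8 arrays. Their summed linear level was 68.9 to 74.9 at 0.005 mM and 37.9 to 46.3 at 1 mM. Only 2 of 3 listed root markers were used, since a marker needed a matched name. Green tissue markers (RBCS and light-harvesting genes, 4 of 6 listed with a matched name) were also well above background on all 8 arrays. Their sums were 63.0 to 77.5 at 0.005 mM and 171 to 207 at 1 mM. The part of these shifts in the results below was not tested.

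At 1 mM ammonium, PPC4, Os09g0315700 and Os08g0366000 fell, Os02g0244700 rose, and Os01g0758300 was not called. So 4 of the 5 genes passed the test, where 76.1% of everything tested passed, and 1 was higher and 3 lower, where 32.2% and 43.8% of everything tested were. The values of the groups did not overlap for any of the 5 genes, which held for 71.6% of everything tested. These counts are near the background and are no result about PEPC genes as a group. What differs among the genes is the direction and the size of their changes. In whole-root RNA, fewer cells of a type and less RNA per cell cannot be told apart.

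PPC4 had levels of 0.99, 1.05, 1.20 and 1.29 on the 4 arrays at 0.005 mM. On the arrays at 1 mM its levels were -0.23, -0.29, -0.39 and -0.30. All 4 arrays at 1 mM lay below all 4 at 0.005 mM. Its mean went from 1.13 ± 0.14 (SD, n = 4) to -0.30 ± 0.069 (SD, n = 4), a change of -1.43 ± 0.073, or 2.70-fold lower (limma adjusted p = 6.96e-07, 95% interval -1.60 to -1.27). The size of this change exceeded that of 89.4% of everything tested. PPC4 is read by a single probe, AK066635, which lies in the coding sequence and 3′ UTR.

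Os09g0315700 showed the second largest fall of the family. Its levels were 0.55, 0.55, 0.55 and 0.52 at 0.005 mM. At 1 mM they were -0.57, -0.60, -0.71 and -0.73. The groups were far apart, and the 4 arrays at 0.005 mM hardly differed from each other. The change was -1.20 ± 0.046, or 2.29-fold lower (limma adjusted p = 1.63e-07, 95% interval -1.30 to -1.09), a size above that of 85.7% of everything tested. Its single probe is named for an expressed sequence tag, CI375311.

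Os08g0366000 is read by 5 probes. The brightest of them, AK067572, gave levels of 1.85, 1.74, 1.78 and 1.82 at 0.005 mM. At 1 mM it gave 1.14, 1.32, 1.29 and 1.27. The groups did not overlap, and high replicate 1 was the lowest array. The change was -0.54 ± 0.050, or 1.46-fold lower (limma adjusted p = 1.83e-05, 95% interval -0.66 to -0.43). This size exceeded that of 60.7% of everything tested, so it was nearer to a middling change on these arrays, where the median absolute change was 0.41. All 5 probes were called lower when each was tested by itself, with changes from -0.79 to -0.53. The largest of these belonged to AK073703, which is listed for transcript Os08t0366000-01, while the other 4 probes are listed for Os08t0366000-04. AK073703 was far dimmer, with linear signals of 206.1 to 227 at 0.005 mM, against 12042.4 to 15625.5 for the other 4. With another background correction, normexp, its change was -0.44, the smallest of the 5, so its rank depended on the background correction.

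Os02g0244700 was the only one of the 5 genes called higher. Its brightest probe, AK106451, gave 3.49, 3.33, 3.37 and 3.23 at 0.005 mM. At 1 mM it gave 4.42, 4.34, 4.27 and 4.22. Every array at 1 mM lay above every array at 0.005 mM. The mean rose from 3.36 ± 0.11 (SD, n = 4) to 4.31 ± 0.088 (SD, n = 4), a change of 0.96 ± 0.067, or 1.94-fold higher (limma adjusted p = 3.76e-06, 95% interval 0.80 to 1.11), a size above that of 80.3% of everything tested. All 4 kept probes of the gene, listed for transcripts Os02t0244700-02 and Os02t0244700-03, were called higher, with changes from 0.89 to 0.96. The fifth probe, AK065425, is the only one listed for Os02t0244700-01. It was too dim for the test, since it rose well above background on just 2 of the low arrays and 1 of the high arrays. Its linear signals were 32.8, 28.5, 29 and 30.6 at 0.005 mM and 23.8, 15.1, 18.9 and 15.2 at 1 mM.

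**Figure D1:**
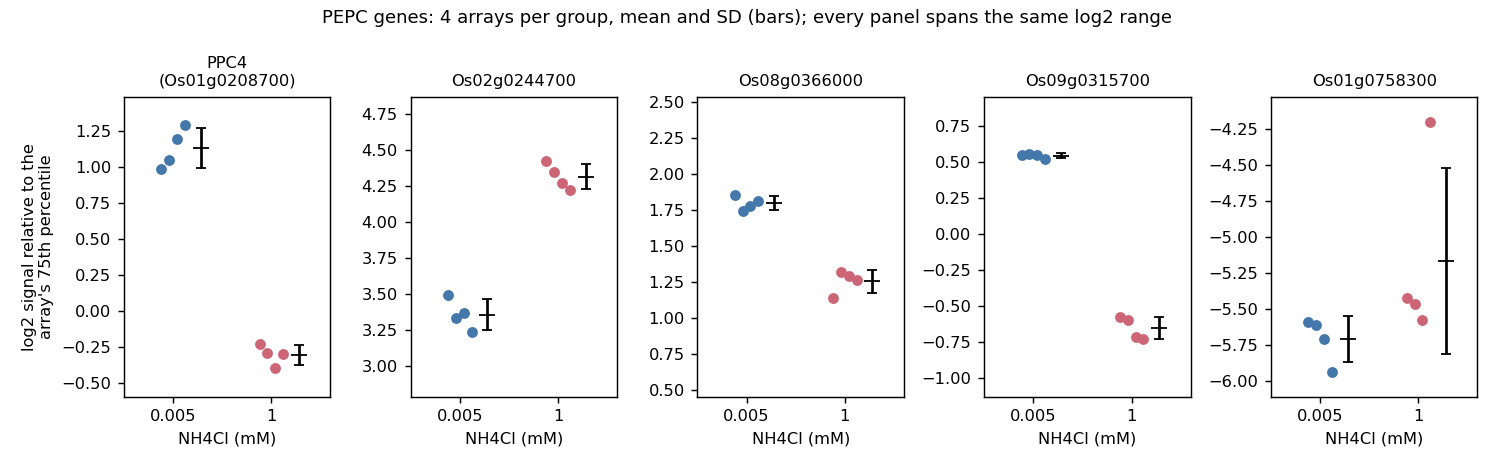
Level of each PEPC gene on every array (y axis, log2 signal relative to the array's 75th percentile) against the ammonium chloride supply (x axis, mM), with the mean and SD of each group beside its 4 points. PPC4, Os08g0366000 and Os09g0315700 lie lower at 1 mM and Os02g0244700 higher, while for Os01g0758300 a single array at 1 mM, at -4.20, lies apart from the rest.

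Os01g0758300 gave a dim signal and was not called. Its brightest probe, AB055075, had levels of -5.59, -5.61, -5.71 and -5.94 at 0.005 mM. At 1 mM the levels were -5.42, -5.46, -5.58 and -4.20. The groups just failed to touch, and high replicate 4 lay far above the other arrays of its group. The change was 0.55 ± 0.29 (limma adjusted p = 0.12, 95% interval -0.13 to 1.22). Without high replicate 4 it was 0.22 (limma adjusted p = 0.0631). The probe AK101274 of the same gene was called higher by itself, at 0.30 ± 0.067 (limma adjusted p = 0.00365), but its change was -0.08 with spike-in scaling (limma adjusted p = 0.336). AK070480 changed by 0.24 ± 0.21 (limma adjusted p = 0.302), with groups that overlapped. Its direction also turned with spike-in scaling, at -0.14 (limma adjusted p = 0.524). The fourth probe, AB055074, spans the 5′ UTR and coding sequence and was too dim for the test, with a signal well above background on a single array in each group.

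Among single probes, 14 of the 16 were kept, and 5 were called higher, 7 lower and 2 not called. Over all 35953 kept probes 76.9% were called, with 33.8% higher and 43.1% lower. No 2 kept probes of the same PEPC gene were called in opposite directions. In a fit without the filter on dim probes, AK065425 of Os02g0244700 was called lower, at -0.48 (limma adjusted p = 0.0108), with groups that did not overlap, opposite to the other 4 probes of that gene.

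**Figure D2:**
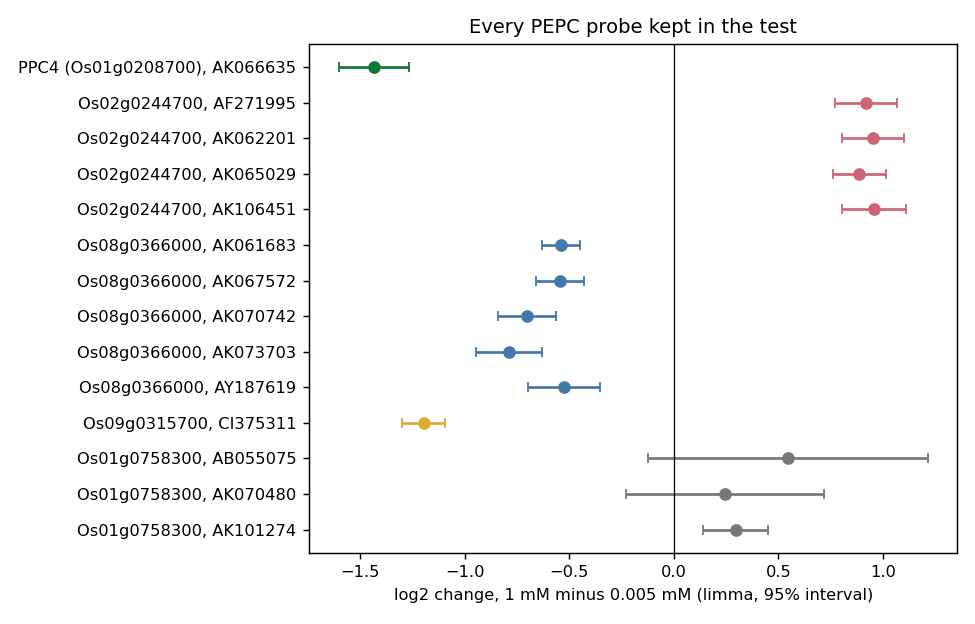
Change of every kept PEPC probe (x axis, log2 change, 1 mM minus 0.005 mM, with its 95% interval from limma), 1 probe per line and 1 colour per gene. The 4 probes of Os02g0244700 lie between 0.89 and 0.96, the 5 of Os08g0366000 between -0.79 and -0.53, and the intervals of 2 of the 3 probes of Os01g0758300 reach across 0.

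Whether the genes changed unequally was asked with the log2 ratio of 2 genes on the same array, which is not moved by a scaling that shifts a whole array by 1 factor. Quantile normalization is no such shift and moved the differences, to -2.11 for PPC4 against Os02g0244700 and 0.12 for Os02g0244700 against Os01g0758300, with no call changed. All 10 pairs were compared with an exact two-sided permutation test over the 70 splits of the 8 arrays, whose smallest possible p is 0.0286, and adjusted over the 10 pairs. The ratio differed between the groups in 9 pairs, each with the smallest possible p (exact permutation adjusted p = 0.0317). How many pairs of other genes would pass was not computed. Since the groups did not overlap for 71.6% of everything tested, this count is no result about PEPC genes as a group.

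The largest difference was between PPC4 and Os02g0244700. Their log2 ratio was -2.50 to -1.94 at 0.005 mM and -4.67 to -4.51 at 1 mM, a difference of -2.39 for PPC4 against Os02g0244700. Os02g0244700 also moved away from Os09g0315700, by 2.15, and from Os08g0366000, by 1.5. The genes that fell did not fall equally. Against Os08g0366000, PPC4 changed by a further -0.89, while Os08g0366000 against Os09g0315700 gave 0.65. PPC4 and Os09g0315700 differed least, by -0.24, and 5 of the 8 analyses that each left out 1 array lost that call (exact permutation adjusted p up to 0.0635, differences from -0.29 to -0.18). These 5 left out low replicate 4 or any of the high replicates. The call was also lost with normexp background correction, alone (exact permutation adjusted p = 0.0952) and with quantile normalization.

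For Os01g0758300 the ratios rest on dim spots. PPC4, Os08g0366000 and Os09g0315700 each fell against it, with differences of -1.98, -1.09 and -1.74. When spots with background outlier flags were also left out, these differences were -1.66, -0.84 and -1.40. None of the 3 was called there (exact permutation adjusted p = 0.0667). With the arrays then left for Os01g0758300, the test could give no smaller p, so no call was possible in that setting. For Os08g0366000 the call was lost without low replicate 4 (difference -1.01, exact permutation adjusted p = 0.0635). Os02g0244700 against Os01g0758300 was the pair that did not pass, with a difference of 0.41 (exact permutation p = 0.2, adjusted p = 0.2). Without high replicate 4 that difference was 0.77 and passed (exact permutation adjusted p = 0.0317).

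**Figure D3:**
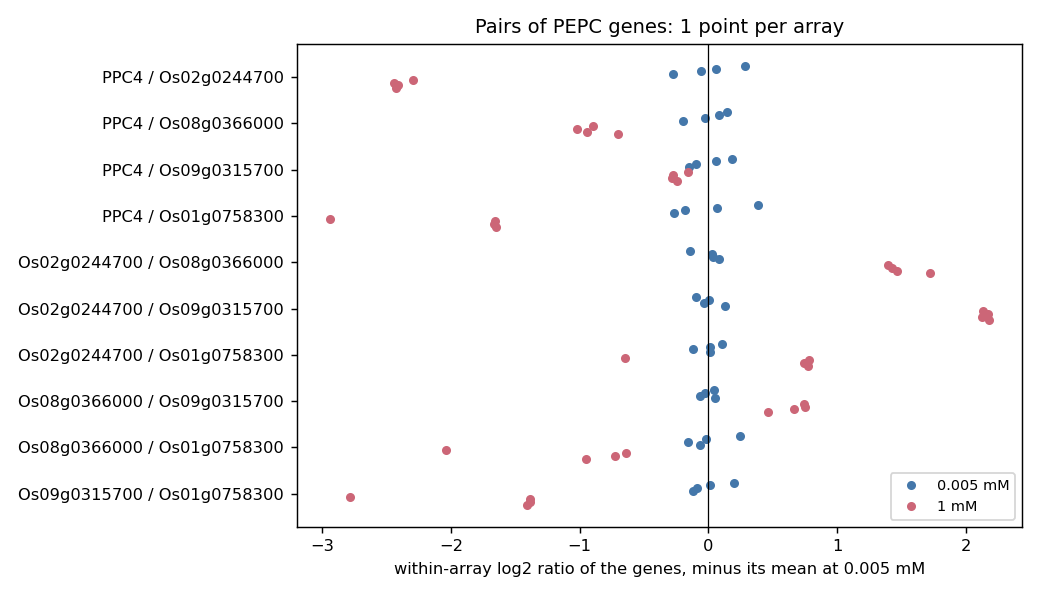
Within-array log2 ratio of each pair of PEPC genes, 1 point per array, shown as the distance from the mean of that ratio at 0.005 mM (x axis, log2 units). The groups separate in 9 of 10 pairs, narrowly for PPC4 over Os09g0315700, and 1 array at 1 mM stands apart in every pair that includes Os01g0758300. The share that would separate among pairs of other genes was not computed.

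The genes linked to PEPC supply or compete for phosphoenolpyruvate, supply bicarbonate, regulate PEPC, act on malate and the citric acid cycle, or transport organic acids. They were taken from lists of 54 loci. Only 6 of these could be named through the gene table used here, and all 6 were tested and called higher, where 32.2% of everything tested was. Their median change was 0.42, against -0.09 over everything tested. With spike-in scaling only 2 of the 6 were called higher and 1 was called lower. Eno1 and PPDK2 were the ones called higher under every scaling tried. Eno1 (Os10g0167300), an enolase, which makes phosphoenolpyruvate, had levels of 4.68, 4.66, 4.67 and 4.64 at 0.005 mM. At 1 mM they were 5.79, 5.94, 6.0 and 5.77. The groups did not overlap, and the change was 1.22 ± 0.057 (limma adjusted p = 4.44e-07).

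PPDK2 (Os03g0432100) encodes a pyruvate phosphate dikinase, an enzyme that interconverts pyruvate and phosphoenolpyruvate. Its levels were -6.78, -8.35, -7.06 and -7.56 at 0.005 mM and -2.05, -1.16, -0.66 and -1.42 at 1 mM. All 4 high arrays and 3 of the 4 low arrays had a signal well above background, and the groups were far apart. The change was 6.12 ± 0.39 (limma adjusted p = 2.36e-06), and 4.29 with normexp background correction. PPDKB (Os05g0405000), of the same enzyme family, changed by 0.55 ± 0.14 (limma adjusted p = 0.00779) and lost its call without scaling between arrays, at 0.28, and with spike-in scaling, at 0.17.

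The remaining 3 changes were small. The malic enzyme genes ME6 (Os01g0188400) and NADP-ME2 (Os01g0723400), whose products turn malate into pyruvate, changed by 0.26 ± 0.086 (limma adjusted p = 0.0225) and 0.28 ± 0.061 (limma adjusted p = 0.00301). Aconitase (Os08g0191100), of the citric acid cycle, changed by 0.15 ± 0.032 (limma adjusted p = 0.0031). The groups overlapped for ME6, and it lost its call in 4 of the 8 analyses that each left out 1 array: low replicate 1 or 2, or high replicate 2 or 3 (limma adjusted p up to 0.0601). The direction of each of the 3 genes turned under at least 1 other scaling, and with quantile normalization Aconitase was called lower, at -0.19 (limma adjusted p = 0.00148).

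**Figure D4:**
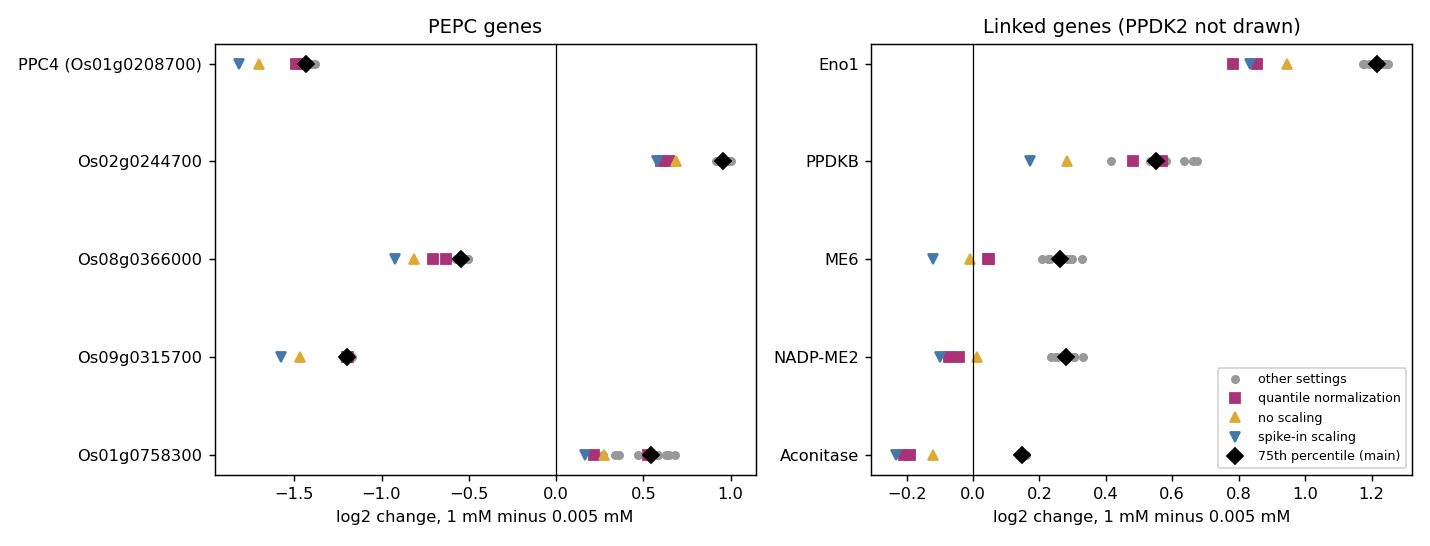
Log2 change (x axis, 1 mM minus 0.005 mM) of each PEPC gene (left) and of 5 linked genes (right) under every setting tried, with the scalings between arrays marked. Each PEPC gene stays on 1 side of 0 under every setting drawn, while ME6, NADP-ME2 and Aconitase cross 0.

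Of the linked genes, those most like each PEPC gene over the 8 arrays were found by Pearson's r of the log2 level, given as a description, since the arrays fall into their 2 groups. For Os02g0244700 these were Eno1 (r = 0.98), PPDK2 (r = 0.972) and Aconitase (r = 0.945). Such values are common on these arrays, since 22% of everything tested had an r of at least 0.9 with Os02g0244700. For PPC4, Os08g0366000 and Os09g0315700 every named linked gene ran the opposite way, ME6 least so (r of -0.729, -0.673 and -0.776). Os01g0758300 had no close match among them, with Aconitase nearest (r = 0.58).

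The authors' deposited table lists 28381 features that passed its own q-value, with a log2 ratio read here as 1 mM over 0.005 mM. It holds 11 of the 16 PEPC spots, beside 28381 of all 43734 non-control spots. These shares are similar, so the count is no result about PEPC genes. In the authors' deposited table the log2 ratio was -1.57 for PPC4 (q = 5.232e-05) and -1.33 for Os09g0315700 (q = 1.165e-06). In the same authors' deposited table the 4 listed spots of Os02g0244700 had ratios of 0.752 to 0.821 and the 5 spots of Os08g0366000 had -0.921 to -0.658. No spot of Os01g0758300 is listed in the authors' deposited table, nor is AK065425.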

How the data were processed

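The deposited files of the arrays give each spot's intensity, on a linear scale. Per the file headers they were written by Agilent Feature Extraction 10.10.1.1. The headers also name IRGSP5 as the build of the array design. Per the labels, the dye was Cy3. The processed signal was already corrected for background by that software. The authors' deposited table gives a log2 ratio per feature beside its p-value and q-value. Its direction, named there as nitrogen sufficient over deficient, was read as 1 mM over 0.005 mM, and 98.25% of its features had the sign found here. Its 8 columns per array were not used.

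Processed signals were put on the log2 scale, less the 75th percentile of the non-control spots of their array. Control spots and spots with a feature outlier flag were left out, which removed 1 PEPC spot, of AB055074 on high replicate 3. Spots with background outlier flags were kept. Both versions had been run and the PEPC values seen before this was settled, so the other is given as an added alternative. Probes had to be well above background on 4 or more of the 8 arrays, and each locus was represented by its brightest such probe on average. Groups were tested two-sided with lmFit and eBayes of limma 3.58.1, run in R 4.3.3. Depth has no meaning for arrays, and the number of arrays limits the precision. The p-values cover the spread between arrays of a slide, not between slides.

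The genes and lists were chosen with earlier results of these data known. All 5 PEPC genes with all their probes are named, and up to 4 called genes of each linked list with the largest absolute change. The rule for linked genes asked for a match of enzyme descriptions, but the gene table used here (RefSeq, assembly ASM3414082v1) holds symbols and no descriptions or rice locus identifiers. Symbols were therefore matched, each on the chromosome the locus names and no more than 1 Mb from where other pairs of locus and symbol place it by interpolation. Those other pairs were written from general knowledge and were partly dropped, and others added, after the table had been seen, so how many of them agree is no independent check. The other 48 listed loci were left out, which include PEPC kinases, a bacterial-type PEPC, carbonic anhydrases and organic acid transporters. The markers for root and green tissue were named in the same way. Functions were tested on simulated data. Sequences and genome positions of the PEPC genes were not analysed here. Alternatives covered scaling, background correction, the filter, the probe that stands for a locus, a replicate block, the variance model, array weights, and each array left out in turn.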

Additional observations from a re-analysis of the deposited data

Results flagged for a closer look

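Among the 31 groups of 4 arrays tested for a lone value, 4 held an array far from the other 3, where chance gives about 1 in 20. On probe AY187619 of Os08g0366000, high replicate 1 was at 1.01, below the other arrays of its group at 1.29 to 1.31. On probe CI375311 of Os09g0315700, low replicate 4 was at 0.52 against 0.55 for the other 3, a gap that is small beside the change of the gene. On probe AB055074 of Os01g0758300, low replicate 3 was at -3.99 (linear signal 242.9), while the other 3 were at -9.51 to -9.18. High replicate 3 of that probe was left out by its outlier flag, so its group was not tested. Its linear signal was 124.5, against 5.1 to 11.4 on the other arrays at 1 mM. On probe AB055075 of the same gene, high replicate 4 was at -4.20 (linear signal 175.7), against -5.58 to -5.42. What set these arrays apart was not tested.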

How the results depend on the processing

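All 5 PEPC genes kept their direction and their side of the threshold under the 20 alternatives run for each. The changes ranged from -1.82 to -1.38 for PPC4, 0.58 to 1.00 for Os02g0244700, -0.92 to -0.50 for Os08g0366000, -1.58 to -1.17 for Os09g0315700 and 0.17 to 0.68 for Os01g0758300 (adjusted p 0.0589 to 0.564). Over everything tested, 8050 were higher and 10949 lower. With arrays left unscaled this became 4884 and 14737, with spike-in scaling 4022 and 16083, and 12138 and 15494 with every kept probe counted. Leaving out 1 array gave 7660 to 7983 higher and 10492 to 10995 lower. Of the 6 linked genes, 2 were higher without scaling, 3 higher and 1 lower with quantile normalization, 2 higher and 1 lower with spike-in scaling, and 3 higher and 1 lower with normexp and quantile normalization. Without scaling, ME6 was -0.0089 and Aconitase -0.12. With quantile normalization NADP-ME2 was -0.042 and Aconitase -0.19. With spike-in scaling ME6 was -0.12, NADP-ME2 -0.099, Aconitase -0.23, probe AK101274 -0.084 and probe AK070480 -0.14. With normexp and quantile normalization NADP-ME2 was -0.071 and Aconitase -0.21.

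With normexp alone, the difference between PPC4 and Os09g0315700 was -0.27 and lost its call (adjusted p = 0.0952, exact permutation), with quantile normalization added it was -0.30 (0.0635), and probe AK070480 was 0.26 and called (limma adjusted p = 0.0266). Quantile normalization of the differences was added after seeing the data. With background outlier flags also left out, another such alternative, the differences of PPC4, Os08g0366000 and Os09g0315700 from Os01g0758300 were -1.66, -0.84 and -1.40. They were not called (exact permutation adjusted p = 0.0667). Too few arrays were left for Os01g0758300 for the test to give a smaller p, so that outcome was fixed in advance. With 1 array left out, differences ranged from -0.29 to -0.18 for PPC4 against Os09g0315700, -1.24 to -0.77 for Os08g0366000 against Os01g0758300, and 0.29 to 0.77 for Os02g0244700 against Os01g0758300. Apart from the arithmetic of scaling and fewer arrays, the cause was not tested.

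A replicate block gave 8111 higher and 11018 lower and changed no call of a PEPC gene. Deviations of arrays with the same number correlated at 0.32, -0.0069, 0.10 and 0.075, so equal numbers were not read as pairing the arrays. A slide block was not run, since no slide held both groups. Normexp used median signals, since the array files used here hold no mean signal column. Spots near background limit Os01g0758300 in particular.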

Other observations

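Probes of the same PEPC gene were also set against each other by their within-array log2 ratios, a comparison added after the values had been seen. Of the 19 pairs of kept probes, 0 passed an exact two-sided permutation test after adjustment (lowest adjusted p = 0.0776). This says little, since 11 of the 19 would have had to reach the smallest possible p, 0.0286, for any to pass. That p was reached by 7 pairs, whose groups were separate. The 3 kept probes of Os01g0758300 did not share the high value of 1 array. High replicate 4 was the highest array of its group on AB055075, at -4.20, and on AK070480, at -6.12, but on AK101274 it lay at -6.63, inside the range of the other 3 arrays at 1 mM.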
